A study of Mus musculus with 15 samples.

Results

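Sodium benzoate, a food preservative, was added to the fructose drinking water of mice, and the liver transcripts of these mice were compared with those of mice given fructose alone. The comparison sets 3 arrays with fructose and benzoate against 3 with fructose, of the 15 arrays of the study, chosen by the treatment named in their labels. The spread behind each p and FDR was estimated over all 15 arrays (10 residual degrees of freedom), so the other 9 bear on which genes passed. It covers all 22206 probe sets that are not controls. All mice were C57BL/6 and carried a human gut microbiota, each array held liver RNA of 1 mouse, and on the Clariom S array several short probes are combined into 1 signal per gene, called a probe set. Both groups drank 10% fructose for 11 weeks from the age of 3 weeks, and the benzoate group also received 4.8 mg of benzoate per kg of body weight per day, while the labels give an age of 11 weeks. The other groups drank water alone, 10% fructose with sodium nitrite (0.36 mg per kg of body weight daily) or 10% fructose with potassium sorbate (19 mg per kg daily), for the same time. The methods state that both sexes were evenly represented in every treatment group of the study. Which sex each array came from is not stated in the labels. The arrays compared were not balanced in the signal of Y-linked genes. It was present on all 3 fructose arrays and on benzoate array 1, and lay below background on benzoate arrays 2 and 3. Values are log2 signals, so a difference of 1 is a change of 2-fold in signal, and levels were not compared between genes.

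Benzoate is cleared by the liver. It is activated to benzoyl-CoA in mitochondria, joined to glycine by glycine N-acyltransferase, and excreted as hippurate. Foreign compounds also act on the liver through nuclear receptors such as CAR and PXR, which switch on cytochrome P450 genes of the Cyp2a, Cyp2b, Cyp2c and Cyp3a families. Many mouse P450 and conjugation genes differ strongly between male and female liver under the control of growth hormone, so that sex is a known source of large differences in this gene class.

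The 3 benzoate arrays did not form one group in the genes of the Y chromosome. The mean of 3 Y-linked genes (Kdm5d, Uty and Eif2s3y) was 9.69, 10 and 9.73 on the fructose arrays. On benzoate arrays 1, 2 and 3 it was 10, 3.57 and 3.51. Benzoate arrays 2 and 3 lay below background, taken as each array's median over its negative control probes (6.52 and 6.5), and array 1 lay with the fructose arrays. All 3 water and all 3 nitrite arrays had a Y-linked mean between 9.37 and 9.98, and all 3 sorbate arrays lay between 3.39 and 4.17. The first principal component of the 6 arrays held 44.1% of the variance and scored -40.7, -16.8 and -19.5 for fructose and -26.1, 49.6 and 53.5 for benzoate arrays 1, 2 and 3. Array 1 lay within the fructose arrays on this component and apart from all others on the second (54.1, with the rest between -23 and 4.17, 21.3% of the variance). The groups did not separate on the first component beyond what an exact permutation test can show (two-sided p = 0.3, 0.45 after Benjamini-Hochberg over 3 components; the smallest p for 3 arrays against 3 is 0.1). Median array signals lay between 6.3 and 6.38 on the 6 arrays. For this reason values are given for each array below. The main counts over all probe sets, and results of several lists, are also given for benzoate array 1 alone against the 3 fructose arrays.

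How many genes passed with benzoate depended on 1 array. With all arrays weighted equally, 3 of 22206 probe sets (0.0135%) changed by more than 2-fold at a false discovery rate (FDR, the Benjamini-Hochberg adjusted p) below 0.05 in limma, and all 3 rose. Without benzoate array 1 the count was 171 (0.77%), but that fit sets benzoate arrays without Y-linked signal against fructose arrays with it. It was 232 with each array weighted by how closely it followed the fitted group means, which is no measure of RNA or array quality. That weighting moved the log2 difference of Uty from -4.21 to -5.36, toward arrays 2 and 3. The 3 probe sets of the main fit were Cyp2a5 and Cyp2a4, a pair of related P450 enzymes that hydroxylate coumarin and steroids, and Gbp3, an interferon-induced GTPase of host defence. Cyp2a5 passed the FDR in all 18 alternative settings. Cyp2a4 no longer passed with only the 6 arrays (0.164), on array 1 alone (0.124) or without any 1 of fructose arrays 2 and 3 and benzoate arrays 2 and 3 (0.0579 to 0.0838). Gbp3 no longer passed with quantile normalization (0.0654), only the 6 arrays (0.0536), the replicate block (0.0577), the Y-linked covariate (0.255), array 1 alone (0.41) or any single array left out other than benzoate array 1 (0.147 to 0.312). At a fold change over 2 and an unadjusted p under 0.05, 326 probe sets (1.47%) differed, of which 203 (0.914%) were higher and 123 (0.554%) lower with benzoate. Below, "rose" and "fell" stand for an unadjusted p under 0.05 unless an FDR is given, and 4.75% of all probe sets rose and 4.62% fell by that measure at any fold. Every test of array 1 alone takes its spread from the other groups, since 1 array has none of its own, and assumes that array 1 varies as they do. Of the 203 higher probe sets, 137 had all 3 benzoate arrays above all 3 fructose arrays, and of the 123 lower ones 65 had all 3 below, and 8.27% and 8.98% of all probe sets had such an order. The 326 were chosen on the difference between these same arrays, so their order is a description and nothing is read from it against those shares. On benzoate array 1 alone, 49 of the 203 and 40 of the 123 lay inside the range of the fructose arrays, and 11 and 13 lay outside it on the other side, while over all probe sets 59.1% had array 1 outside that range. Array 1 alone called 64 of the 203 higher and 32 of the 123 lower probe sets by the same fold and unadjusted p, and 1.68% of all probe sets passed in each direction. The group means behind the 203 and 123 include array 1, so this count too is a description only.

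**Figure D1:**
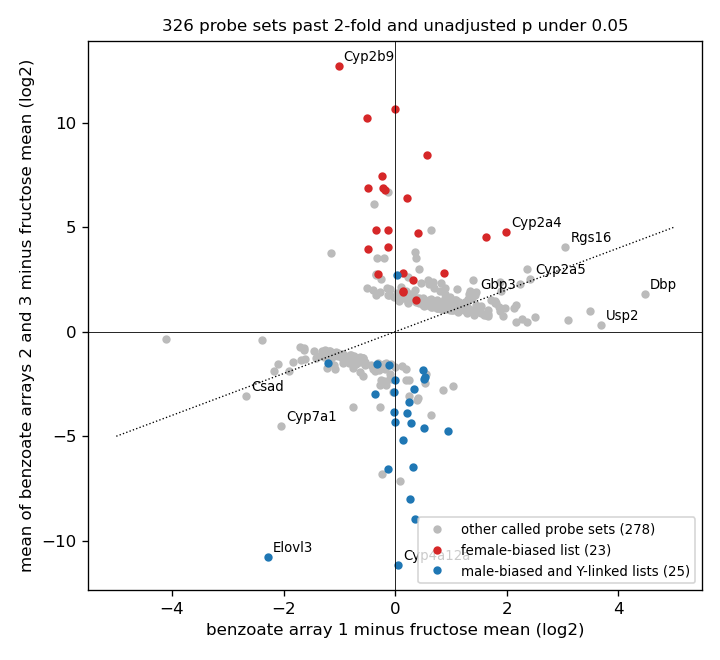
Shift of each of the 326 probe sets past 2-fold and an unadjusted p under 0.05, on benzoate array 1 (horizontal axis, log2 difference from the mean of the 3 fructose arrays) and on the mean of benzoate arrays 2 and 3 (vertical axis, same unit). Points on the dotted line moved equally. The largest shifts stand near the vertical axis, where array 1 lay at the fructose level, and they include most genes of the female-biased list (red, 23) and of the male-biased and Y-linked lists (blue, 25).

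The share of probe sets that all 3 arrays shifted fell with the size of the change. Of the 28 probe sets that differed by more than 3 on the log2 scale, 7 had all 3 benzoate arrays outside the fructose range, and of the 8 that differed by more than 5 only 1 did, Elovl3. The plot of array 1 against arrays 2 and 3 shows this as a vertical band. Among the 203 higher probe sets the median difference was 1.22 over the group and 0.75 on array 1 alone. Among the 123 lower ones it was -1.31 and -0.58. The genes described first are those that all 3 benzoate arrays moved in one direction.

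The promoters of Cyp2a5 and Cyp2a4, which gave the smallest p-values of the comparison, are almost the same sequence. Both genes lie on the plus strand of mouse chromosome 7, and the promoters are RefSeq's on GRCm38.p6. The stretches from 250 bases before to 50 after each start, chr7:26835089-26835388 for Cyp2a5 and chr7:26306942-26307241 for Cyp2a4, are identical at 294 of 299 aligned bases (98.3%). They are shown as the start regions of close relatives, and capitals mark the 5 bases that differ. Whether the signals of both genes are separate on the array depends on their transcripts and probes, which were not compared.
Cyp2a5: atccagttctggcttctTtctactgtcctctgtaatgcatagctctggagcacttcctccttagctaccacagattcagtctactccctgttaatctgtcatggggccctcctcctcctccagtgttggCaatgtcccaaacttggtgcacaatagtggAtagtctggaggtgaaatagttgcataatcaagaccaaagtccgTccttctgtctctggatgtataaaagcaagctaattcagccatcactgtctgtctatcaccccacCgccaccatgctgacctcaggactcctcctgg
Cyp2a4: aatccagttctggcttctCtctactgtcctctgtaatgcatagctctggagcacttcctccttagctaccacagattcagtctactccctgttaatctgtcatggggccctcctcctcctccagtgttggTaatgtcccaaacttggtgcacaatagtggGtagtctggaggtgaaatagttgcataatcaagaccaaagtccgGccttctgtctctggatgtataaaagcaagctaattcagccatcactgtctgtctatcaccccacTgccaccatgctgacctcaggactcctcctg

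Cyp2a5 had signals of 13.68, 12.99 and 13.08 on the fructose arrays and 15.67, 15.66 and 15.88 on the benzoate arrays. The groups were far apart, and the benzoate arrays agreed among themselves whatever their Y-linked signal. The mean rose from 13.25 ± 0.38 to 15.74 ± 0.13 (SD, n = 3 each), a difference of 2.49 ± 0.23 (SE) or 5.6-fold (limma, FDR = 7.27e-05). Benzoate array 1 alone stood 2.42 above fructose (FDR = 0.0113) with the spread of the other groups. On the other arrays Cyp2a5 lay at 13.93 to 14.26 with water, 14.15 to 14.6 with nitrite and 15.63 to 15.85 with sorbate, so that the fructose arrays were the lowest of the study and the benzoate and sorbate arrays the highest.

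Cyp2a4, a testosterone hydroxylase that is higher in female mouse liver, had fructose signals of 11.81, 10.95 and 11.15 and benzoate signals of 13.29, 16.23 and 15.9. All 3 benzoate arrays lay above all fructose arrays, but array 1 lay between the groups of values. The difference of the means was 3.84 ± 0.51 (SE; FDR = 0.00642), and array 1 alone gave 1.99 (FDR = 0.124). The nitrite and water arrays lay between 11.84 and 12.54 and the sorbate arrays between 15.73 and 15.98. The Cyp2a list also held relatives such as Cyp2a12, Cyp2a22, Cyp2f2 and Cyp2s1. Of its 7 measured genes, these 2 rose over the 3 arrays and none fell. On array 1, 6 of the 7 lay above the fructose range, while 59.1% of all probe sets had array 1 outside that range. The array medians of the list were 0.99, 0.13 and 0.29 with benzoate against 0.23, -0.17 and -0.02 with fructose, so array 1 was the highest.

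**Figure D2:**
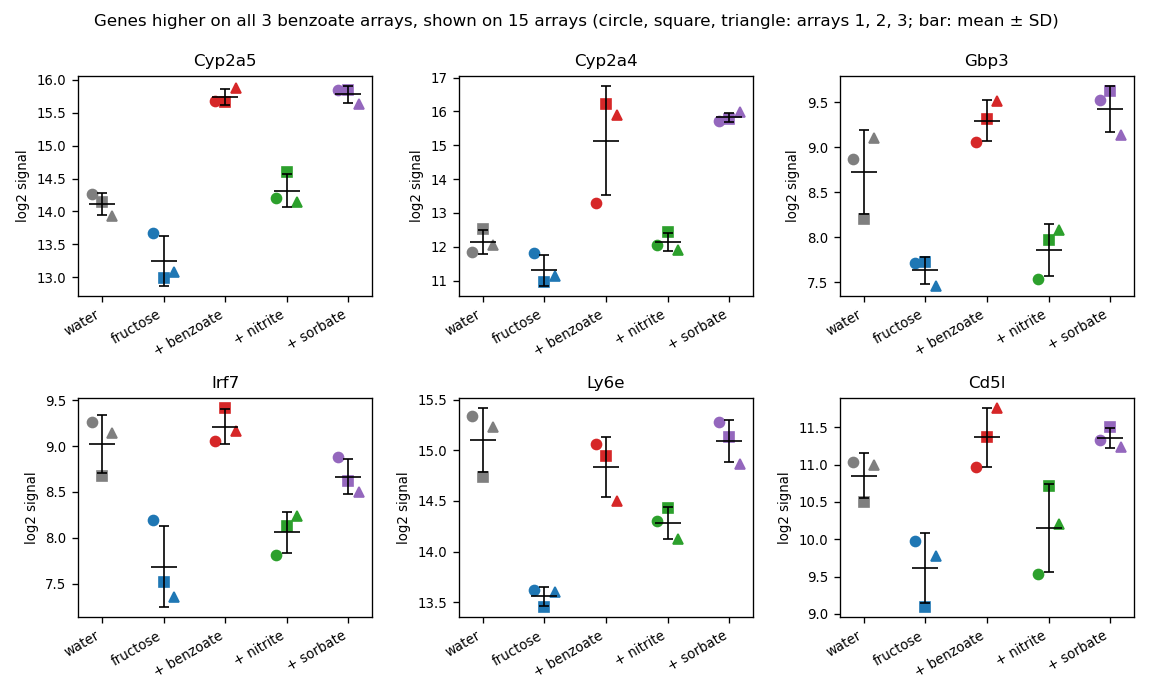
Log2 signals of 6 genes on all 15 arrays (circle, square and triangle are arrays 1, 2 and 3 of a group; the bar is the mean and the whisker 1 SD). In each gene the 3 benzoate arrays lie above all 3 fructose arrays. In all 6 genes the water arrays also lie above the fructose arrays.

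Gbp3 led a group of interferon response genes. Interferons bind surface receptors and act through STAT and IRF factors on short response elements in promoters, and the products, among them guanylate-binding proteins and immunity-related GTPases, restrict microbes inside cells. Of 37 measured genes of the interferon and Gbp list, 17 rose and none fell, 45.9% against 4.75% of all probe sets. The median difference over the list was 0.56, against -0.03 over all probe sets, and 14 of the 37 had all 3 benzoate arrays above the fructose arrays. On array 1 alone 5 of the 37 were higher at an unadjusted p under 0.05 (3.09% of all probe sets), with a median of 0.19, and without array 1 the count was 17 (6.01%). The medians of fructose arrays 1, 2 and 3 around their mean were 0.27, -0.12 and -0.14, so that benzoate array 1, at 0.19, lay within the fructose arrays for the list as a whole, and arrays 2 and 3 lay above it (0.64 and 0.8).

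Gbp3 signals were 7.71, 7.72 and 7.46 with fructose and 9.06, 9.31 and 9.51 with benzoate, a rise of 1.66 ± 0.26 or 3.16-fold (FDR = 0.0368). No benzoate array came near the fructose arrays, and array 1 alone gave 1.43 (FDR = 0.41). Water arrays were at 8.2 to 9.1, nitrite arrays at 7.53 to 8.08 and sorbate arrays at 9.14 to 9.62. Irf7, the transcription factor that amplifies type I interferon, had 8.19, 7.52 and 7.35 with fructose and 9.06, 9.42 and 9.16 with benzoate, a difference of 1.53 ± 0.26 that missed the threshold (FDR = 0.0602). Ly6e, an interferon-induced membrane protein, was at 13.62, 13.45 and 13.6 with fructose and 15.06, 14.94 and 14.5 with benzoate (1.28 ± 0.23, FDR = 0.0719). In both genes array 1 lay above all fructose arrays. Gbp7, another guanylate-binding protein, rose by 0.93 ± 0.28 (FDR = 0.309; fructose 9.6, 9.09 and 9.13, benzoate 9.9, 10.3 and 10.41). Igtp, an immunity-related GTPase, rose by 1.03 ± 0.32 (FDR = 0.341; 8.72, 8.53 and 8.12 against 9.25, 9.07 and 10.13). Ly6e, Gbp7 and Igtp were picked after their values had been seen.

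The interferon-stimulated response element was searched as GAAA, any 2 bases (NN) and GAAA on both strands of the same 300-base promoters, and capitals mark its matches. Gbp3 (chr3:142559794-142560093, plus strand) has 2 matches that overlap each other and begin 45 and 39 bases before the start, Gbp7 (chr3:142530086-142530385, plus strand) has 1 that begins 53 bases before it, and Igtp (chr11:58199306-58199605, plus strand) has 1 that begins 34 bases before it. The sequences are from RefSeq on GRCm38.p6, and where a gene had several promoters the one with the most matches is shown. The promoter of Irf7 was searched as well and held no match.
Gbp3: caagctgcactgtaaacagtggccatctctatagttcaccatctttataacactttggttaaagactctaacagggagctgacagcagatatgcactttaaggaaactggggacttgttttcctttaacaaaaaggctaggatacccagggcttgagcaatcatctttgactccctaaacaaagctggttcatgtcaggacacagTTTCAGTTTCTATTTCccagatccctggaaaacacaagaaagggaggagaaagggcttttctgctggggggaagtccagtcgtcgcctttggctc
Gbp7: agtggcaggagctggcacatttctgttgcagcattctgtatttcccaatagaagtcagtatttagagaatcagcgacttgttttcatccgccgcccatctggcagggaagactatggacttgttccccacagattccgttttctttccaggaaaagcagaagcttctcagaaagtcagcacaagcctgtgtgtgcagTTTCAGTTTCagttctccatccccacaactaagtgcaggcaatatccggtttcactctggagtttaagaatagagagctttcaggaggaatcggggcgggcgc
Igtp: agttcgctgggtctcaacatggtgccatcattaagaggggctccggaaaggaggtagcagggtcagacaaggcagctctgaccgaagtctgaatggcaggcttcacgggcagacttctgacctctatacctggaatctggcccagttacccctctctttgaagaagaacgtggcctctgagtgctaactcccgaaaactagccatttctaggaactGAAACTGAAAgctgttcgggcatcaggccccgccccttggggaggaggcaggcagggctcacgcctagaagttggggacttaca
The element was found in 3.44% of all 32851 promoters in the table, or 3.99% of 27025 genes. RefSeq gave a promoter for 27 list members, of which 18 held it (66.7%). It stood in 9 of 13 members that rose and in 9 of 14 that did not pass the test, so that its presence did not separate these members.

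Other immune lists showed fewer calls. Of 17 measured genes of antigen presentation 4 rose and none fell, led by Psmb10, a subunit of the immunoproteasome (0.8, FDR = 0.454), and Tap1, the peptide transporter (0.76, FDR = 0.499). Of 29 cytokines and chemokines 3 rose and none fell. They were Il18bp, the secreted inhibitor of interleukin 18 (7.82, 6.98 and 7.68 with fructose, 8.48, 8.83 and 8.6 with benzoate, 1.15, FDR = 0.204), Il1a (0.78, FDR = 0.446) and Cxcl12 (0.77, FDR = 0.359). In all 3 cytokine genes every benzoate array lay above the fructose arrays. Of 24 acute phase genes 6 rose and none fell, among them Lbp, which binds bacterial endotoxin (1.23, FDR = 0.371), and Orm2, an orosomucoid (9.8, 8.53 and 9.08 against 10.22, 10.09 and 10.5, 1.13, FDR = 0.324). Mt1, a metal-binding metallothionein, had the largest rise of this list (2.48, FDR = 0.417), with fructose signals of 7.83, 7.96 and 7.57 and benzoate signals of 8.16, 10.78 and 11.87. Array 1 lay just above the fructose arrays in Mt1.

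Markers of macrophages and of sinusoidal endothelium had rises and no falls with benzoate, none of them past the FDR. Kupffer cells are the macrophages of the liver sinusoids, and of 19 measured macrophage markers 8 rose and none fell (median 0.5, with 9 above the fructose range on all 3 arrays). Array medians of this list were 0.45, 0.58 and 0.77 with benzoate, above the fructose arrays (0.09, -0.18 and 0.04). Cd5l, a secreted macrophage protein, was at 9.98, 9.09 and 9.78 with fructose and 10.97, 11.37 and 11.76 with benzoate (1.75 ± 0.31, FDR = 0.0606). Lyz2, lysozyme, rose by 1.07 (FDR = 0.411). Clec4f, a defining marker of Kupffer cells and picked for that, was at 9.35, 8.88 and 9.07 against 9.85, 10.2 and 10.26 (1 ± 0.23, FDR = 0.193), without overlap. On array 1, 10 of the 19 lay above the fructose range and 2 below it, while 59.1% of all probe sets had array 1 outside that range. Of 15 sinusoidal endothelial markers 8 rose and none fell (median 0.55), led by Cdh5, the junction protein VE-cadherin (1.14, FDR = 0.349), and Eng, endoglin (0.99, FDR = 0.429). The median on array 1 was only 0.25, near the highest fructose array (0.21). Without array 1, 11 of the 15 were higher (6.01% of all probe sets). In bulk tissue, more cells of a type and more RNA per cell cannot be told apart.

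Markers of other cells gave few calls in this comparison. None of 10 hepatocyte markers fell and 1 rose, none of 16 T, B and NK cell markers rose and 1 fell, and of 10 neutrophil markers 1 fell. Of 15 stellate cell and matrix genes 1 rose, and of 7 cholangiocyte markers 1 rose and 1 fell. Both measured red cell markers fell. Alas2, the red cell enzyme of heme synthesis, was at 11.15, 10.77 and 10.68 with fructose and 11.11, 7.41 and 8.2 with benzoate, so that array 1 stayed at the fructose level and arrays 2 and 3 lay far below it (-1.96, FDR = 0.303). Slc4a1, the red cell anion exchanger, was at 8.24, 7.63 and 7.86 against 6.86, 7.45 and 7.58 (-0.62, FDR = 0.529). The part of these cell types in the other results was not tested.

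The genes of bile acid synthesis and transport had no common direction, with 4 of 27 measured genes higher, 6 lower and 17 not passed, and a median of 0.24. Cyp7a1 and Cyp8b1 were lower on all 3 benzoate arrays, and Abcg5 and Abcg8 higher, none of them past the FDR in the main fit. With the spread taken from only the 6 arrays compared, Abcg5 passed (FDR = 0.0243) and the others did not. Bile acid synthesis starts with Cyp7a1, the rate-limiting cholesterol hydroxylase, and Cyp8b1 sets the share of cholic acid. Abcg5 and Abcg8 together form the transporter that moves cholesterol and plant sterols into bile.

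Cyp7a1 had signals of 14.97, 17.08 and 15.8 with fructose and 13.91, 12.32 and 10.55 with benzoate. The groups did not overlap, but both were spread widely, and the fall of 3.69 ± 0.76 on the log2 scale had FDR = 0.16. Array 1 alone gave -2.04 (FDR = 0.753). Cyp8b1 was at 12.75, 13.12 and 12.93 against 10.83, 11.71 and 11.1, and array 1 was the lowest of these (-1.72 ± 0.52, FDR = 0.321; -2.1 on array 1 alone). Abcg5 was at 9.2, 9.59 and 10.15 with fructose and 12, 12.29 and 12.95 with benzoate, a rise of 2.77 ± 0.54 or 6.82-fold (FDR = 0.108). Abcg8 was at 10.45, 10.6 and 10.69 against 12.03, 12.17 and 12.79 (1.75 ± 0.4, FDR = 0.204). Every benzoate array of both transporter genes, array 1 included, exceeded every fructose array. Cyp7b1, the oxysterol hydroxylase of the alternative pathway and a male-biased gene, was at 14.96, 9.52 and 9.02 with benzoate against 15.59, 12.46 and 14 (-2.85, FDR = 0.428), with array 1 inside the fructose range. Slco1a4, an uptake transporter, rose by 1.8 (FDR = 0.371), and Klb, the co-receptor for the hormone FGF15, by 0.81 (FDR = 0.499).

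Cholesterol synthesis genes had a median difference of -0.41 over 18 measured genes, of which none rose and 3 fell. Idi1, isopentenyl diphosphate isomerase, was at 13.59, 14.37 and 14.05 with fructose and 12.58, 12.83 and 12.61 with benzoate (-1.33 ± 0.27, FDR = 0.156), and array 1 alone fell as far (-1.42). Cyp51, lanosterol demethylase, was at 12.38, 13.29 and 13.04 against 12.14, 11.99 and 11.83 (-0.92, FDR = 0.37). Fdps, farnesyl diphosphate synthase, was at 11.68, 12.51 and 12.5 against 11.7, 10.84 and 10.45 (-1.23, FDR = 0.51), with array 1 inside the fructose range. Fructose array 1 was the lowest fructose array in all 3 genes, and its list median lay at -0.55 against 0.28 and 0.25 on the others, beside -0.32, -0.44 and -0.62 on the benzoate arrays.

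**Figure D3:**
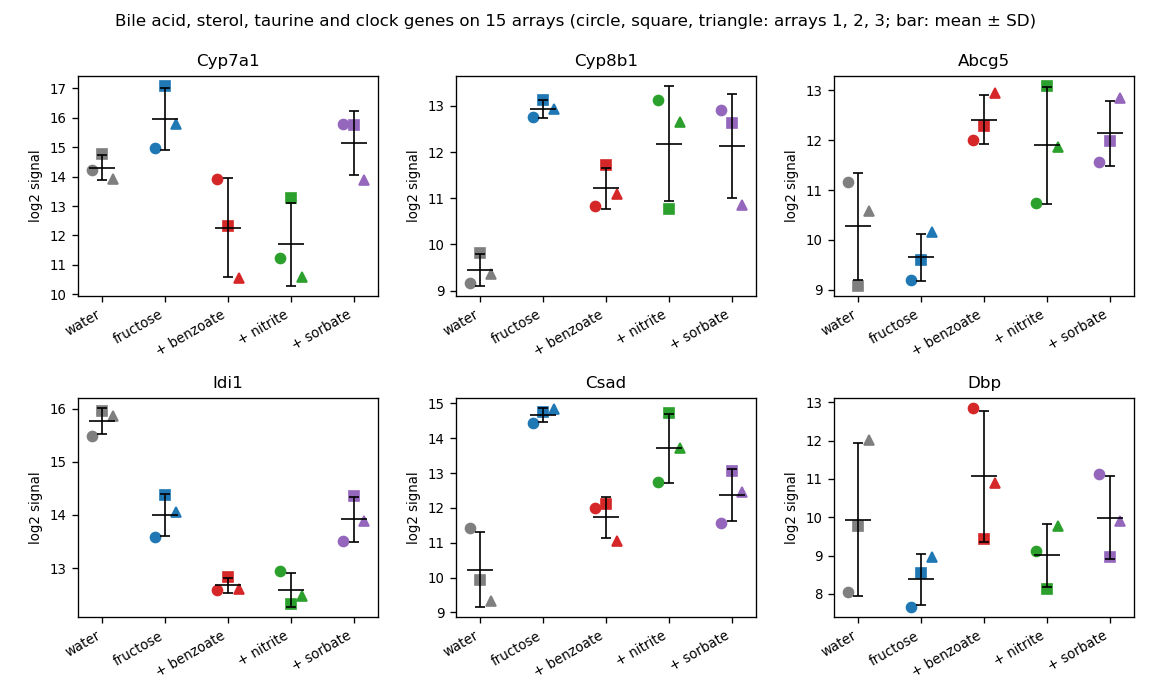
Log2 signals of 6 genes of bile acid synthesis, sterol export, cholesterol synthesis, taurine synthesis and the clock on all 15 arrays (circle, square and triangle are arrays 1, 2 and 3; bar and whisker are the mean and 1 SD). Cyp7a1, Cyp8b1, Idi1 and Csad lie lower and Abcg5 higher on all 3 benzoate arrays than on the fructose arrays, and Dbp is highest on benzoate array 1.

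Csad, cysteine sulfinic acid decarboxylase, the enzyme that commits cysteine to taurine, was the fall with one of the smallest p-values. Its signals were 14.44, 14.75 and 14.83 with fructose and 12.01, 12.11 and 11.06 with benzoate. The mean fell by 2.95 ± 0.51 on the log2 scale, so that the fructose signal was 7.71-fold that with benzoate (FDR = 0.0602), and array 1 alone gave -2.67 (FDR = 0.434). Taurine is the amino acid to which mouse bile acids are joined. The water arrays lay at 9.32 to 11.41, in part below the benzoate arrays. Among the 27 genes of urea synthesis and amino acid breakdown, Csad and Kynu, the kynurenine hydrolase (-0.48, FDR = 0.526), fell. Hal and Uroc1, the first and second enzymes of histidine breakdown, rose (Hal at 14.01, 14.14 and 14.37 against 15.05, 15.49 and 15.53, 1.18, FDR = 0.204; Uroc1 0.73, FDR = 0.438). In all 4 genes the benzoate arrays lay outside the fructose range.

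Among the 10 largest rises that all 3 arrays shared, the genes beyond Cyp2a4, Cyp2a5, Abcg5, Mt1 and Dbp came from several functions. Rgs16, a regulator of G protein signalling, was at 5.91, 8.96 and 9.79 with fructose and 11.27, 12.36 and 12.16 with benzoate (3.71, FDR = 0.258). Mfsd2a, the transporter of lysophosphatidylcholine with omega-3 fatty acids, was at 8.35, 8.19 and 8.3 against 10.52, 10.47 and 10.62 (2.26, FDR = 0.273). Within both groups the Mfsd2a arrays differed little, but the nitrite arrays, at 9.07 to 11.84, and the sorbate arrays, at 8.94 to 11.77, were spread widely. Hsd17b6, a steroid dehydrogenase, was at 10.79, 11.1 and 11.11 against 12.62, 15.36 and 15.71 (3.56, FDR = 0.0606). Nt5e, the ectoenzyme CD73 that makes adenosine, was at 5.1, 5.53 and 5.7 against 5.79, 9.2 and 9.31 (3.35-fold higher with signals below background set to the negative control median, FDR = 0.204). Sult2a2, a hydroxysteroid sulfotransferase, was at 5.36, 5.04 and 5.26 against 5.87, 10.12 and 10.01 (4.88-fold higher by the same setting, FDR = 0.272). In Nt5e and Sult2a2 array 1 was above the fructose arrays only by a small margin and below its negative control median of 6.03, and neither passed on array 1 alone.

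The 10 largest falls that all 3 arrays shared began with Elovl3, a fatty acid elongase that is higher in male liver. Its signals were 16.99, 16.6 and 16.86 with fructose and 14.53, 6.27 and 5.77 with benzoate (at least 198-fold lower with arrays 2 and 3, which lay below background, set to their negative control median, FDR = 0.0602). Array 1 differed from fructose by -2.29 (FDR = 0.124). After Elovl3, Cyp7a1, Csad and Cyp8b1 the list held Adh6-ps1, an alcohol dehydrogenase pseudogene (12.82, 11.54 and 12.13 against 11.41, 8.53 and 8.56), and Ttc39c (16.12, 16.17 and 16.3 against 15.93, 12.68 and 12.53), both with smaller shifts on array 1 (-0.75 and -0.26). Cops9, a small subunit of the COP9 signalosome, was at 11.81, 11.05 and 11.51 against 9.56, 9.32 and 9.86 (-1.88, FDR = 0.326), and array 1 took full part. Slc17a8, a vesicular glutamate transporter, was at 9.11, 9.17 and 8.69 against 7.16, 7.53 and 7.54 (-1.58, FDR = 0.284). Amy2a4, a pancreatic type amylase, fell by 1.53 (FDR = 0.206) and 9130409I23Rik, a gene named only by its clone, by 1.51 (FDR = 0.284).

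The circadian clock list had its largest median shift on benzoate array 1 (1.73, against 0.15 and 0.45 on arrays 2 and 3). The liver clock is a loop in which ARNTL with CLOCK or NPAS2 drives the Per, Cry and Nr1d genes, and these repress it in turn. PAR bZIP factors such as DBP and TEF carry the rhythm to output genes through the D-box. Of 19 measured clock genes 9 rose and 3 fell. Array 1 alone gave 13 higher and 5 lower (3.09% and 3.42% of all probe sets), and without array 1 only 4 were higher and none lower (6.01% and 5.23%).

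Arntl was at 9.93, 10.21 and 10.53 with fructose and 6.11, 10.45 and 9.31 with benzoate (-1.6, FDR = 0.526; -4.11 on array 1 alone). Dbp was at 7.65, 8.54 and 8.96 against 12.86, 9.44 and 10.9 (2.68, FDR = 0.347). Usp2, a rhythmic ubiquitin protease, was at 4.36, 4.22 and 5.24 against 8.3, 4.75 and 5.07 (FDR = 0.519). It was 1.59-fold higher with signals below background set to the negative control median, and only benzoate array 1 lay above background. Array 1 was thus the extreme in all 3 genes, low for Arntl and high for its outputs. Nfil3, a repressor of the D-box, fell by 1.06 (FDR = 0.375), with arrays 1 and 3 at 6.65 and 6.88 and array 2 at 8.34, inside the fructose range of 8.18 to 8.5. Bhlhe40, a repressor of the loop, was at 11.77, 11.9 and 11.77 against 13.95, 12.81 and 13.11 (1.48, FDR = 0.233), and Cry2 at 8.32, 8.85 and 8.93 against 10.14, 9.9 and 10.1 (1.35, FDR = 0.193). Bhlhe40 and Cry2 were higher on all 3 benzoate arrays. The labels give no time of sampling.

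Per3, a period gene, is shown as the clock list's only holder of the D-box, searched as TTATGTAA on both strands of the 16 members with a promoter in the table. Its promoter (chr4:151044616-151044915, minus strand, GRCm38.p6, RefSeq) has 2 matches, in capitals, that begin 205 and 158 bases before the start. The motif stood in 0.938% of all 32851 promoters.
Per3: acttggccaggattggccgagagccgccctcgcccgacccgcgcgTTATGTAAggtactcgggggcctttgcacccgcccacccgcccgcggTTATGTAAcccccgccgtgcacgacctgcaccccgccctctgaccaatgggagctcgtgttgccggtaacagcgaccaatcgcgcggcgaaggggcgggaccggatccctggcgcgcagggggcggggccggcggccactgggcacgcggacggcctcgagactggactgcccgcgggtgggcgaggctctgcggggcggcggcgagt
Per3 signals were 6.71, 6.88 and 6.92 with fructose and 9.94, 6.66 and 8.18 with benzoate (1.42, FDR = 0.514; 3.1 on array 1 alone, FDR = 0.155). Array 2 lay below the fructose arrays, so that this gene had no common direction.

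Genes that differ between male and female liver made up many of the largest differences, and they followed the Y-linked signal of the array. Of 39 measured genes known to be higher in female liver 23 rose and none fell, and of 26 known to be higher in male liver 21 fell and 1 rose. In the female list 30 genes had benzoate arrays 2 and 3 above the fructose range but not array 1 (9.2% of all probe sets), and 5 had all 3 above it. In the male list 21 had arrays 2 and 3 alone below it (9.05% of all probe sets) and 2 all 3. The array medians of the female list were -0.22 on array 1, 2.64 on array 2 and 3.28 on array 3, and those of the male list 0.23, -2.64 and -2.93. On array 1, 6 female-list genes lay above the fructose range, 13 below and 20 inside it. Of the male list 6 lay above, 2 below and 18 inside. Over all probe sets 59.1% had array 1 outside that range.

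**Figure D4:**
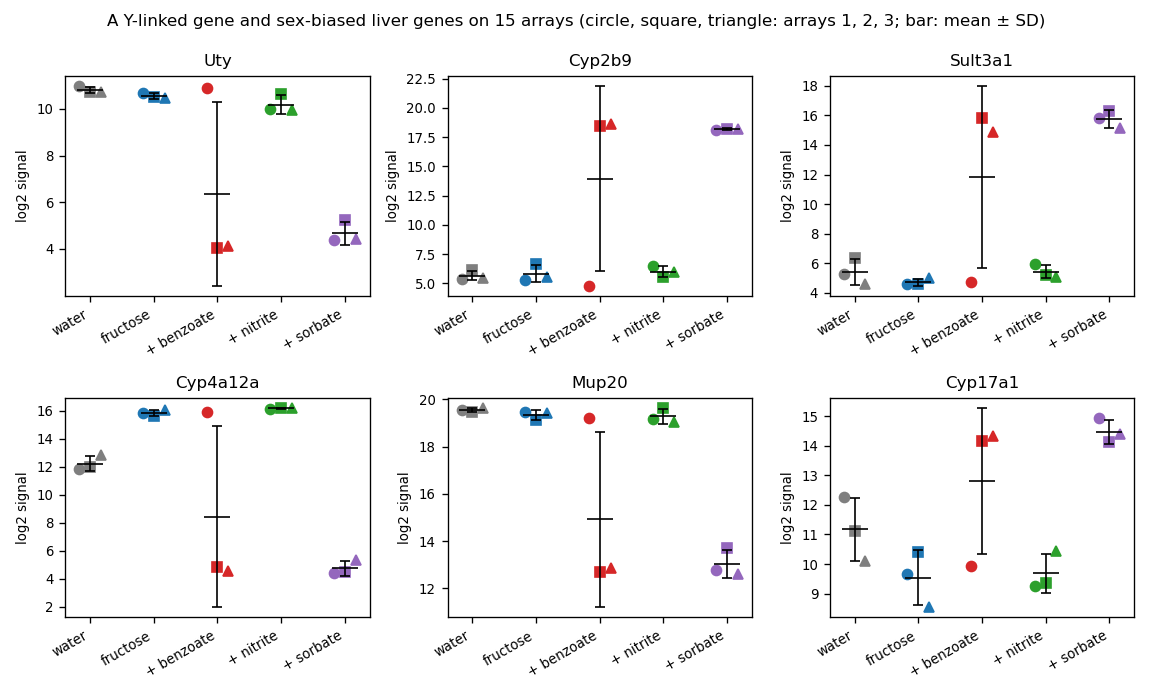
Log2 signals of the Y-linked gene Uty and of 5 sex-biased liver genes on all 15 arrays (circle, square and triangle are arrays 1, 2 and 3; bar and whisker are the mean and 1 SD). Benzoate array 1 lies with the fructose arrays, and benzoate arrays 2 and 3 lie with the 3 sorbate arrays.

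Cyp2b9, a P450 of female liver, was at 5.26, 6.64 and 5.56 with fructose and 4.8, 18.46 and 18.59 with benzoate (FDR = 0.26). It was 236-fold higher as a group mean with arrays below background set to their negative control median, as 2 of the 3 fructose arrays and benzoate array 1 were. Raising array 1 raises the benzoate mean, so this fold is not a lower bound. Cyp2b10, the P450 gene best known as a target of CAR, was at 6, 6.29 and 4.6 against 6.19, 13.96 and 14.2 (FDR = 0.193). It was at least 32.3-fold higher by the same setting, which here raised only fructose arrays. Cyp2b13 was at 5.87, 5.53 and 5.3 against 5.06, 15.39 and 16.18. Array 1 was close to or below background in all 3 Cyp2b genes, and arrays 2 and 3 were higher by many fold. Sult3a1, a sulfotransferase of female liver, was at 4.57, 4.59 and 4.98 against 4.72, 15.85 and 14.9 (FDR = 0.215), 56.7-fold higher with background set as for Cyp2b9. A1bg, a secreted glycoprotein, was at 3.33, 3.35 and 3.43 against 3.15, 11.34 and 9.11. Cyp2c40, a P450 that acts on arachidonic acid, was at 11.83, 10.21 and 9.55 against 10.35, 17.39 and 17.19, and Cyp17a1, the steroid 17-hydroxylase, at 9.68, 10.41 and 8.54 against 9.95, 14.15 and 14.33. Abcb1a, the drug efflux pump P-glycoprotein, was 1 of the 5 female-list genes that array 1 shared (6.26, 6.8 and 6.62 against 7.44, 8.87 and 9.84, 2.15, FDR = 0.165).

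Male-biased genes mirrored this. Cyp4a12a, a P450 that hydroxylates fatty acids, was at 15.86, 15.66 and 16.04 with fructose and 15.9, 4.86 and 4.51 with benzoate (at least 74.2-fold lower, with arrays 2 and 3 below background, FDR = 0.207). Cyp4a12b was at 14.76, 14.65 and 15.04 against 15.17, 5.24 and 6.52. Mup20, a urinary pheromone protein, was at 19.48, 19.11 and 19.42 against 19.21, 12.69 and 12.86. Cyp2d9, a testosterone hydroxylase, was at 17.6, 17.51 and 17.96 against 17.67, 13.93 and 13.75. In each of these 4 genes array 1 was at the fructose level, and the sorbate arrays lay near benzoate arrays 2 and 3. The Y-linked genes moved likewise, with Uty at 10.7, 10.51 and 10.48 against 10.89, 4.04 and 4.14, Kdm5d at 7.82, 8.36 and 7.64 against 7.93, 3.33 and 3.9, and Eif2s3y at 10.56, 11.14 and 11.06 against 11.19, 3.33 and 2.49. For every gene of this comparison, and not only those of these lists, benzoate and the lack of Y-linked signal on arrays 2 and 3 cannot be told apart within those arrays. All counts given without array 1 carry the same limit.

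The enzymes that dispose of benzoate itself showed no common direction. Of 29 measured genes of glycine conjugation and glycine supply 2 rose and 3 fell, and the median was 0.12. Glyat, the enzyme that joins benzoate to glycine, was at 16.92, 16.56 and 16.75 with fructose and 16.7, 15.97 and 16.01 with benzoate (-0.52 ± 0.24, FDR = 0.527), with array 1 inside the fructose range (-0.05), and it was picked for its role. Its relative Keg1 (15.98, 14.7 and 15.3 against 14.74, 13.46 and 12.95, -1.61, FDR = 0.247) also fell, mainly on arrays 2 and 3. Glyatl3, another relative, passed as lower, but its signals lay below background on all 6 arrays and no fold is given. Acss3, a mitochondrial short-chain acyl-CoA synthetase (1.3, FDR = 0.37), and Slc16a7, a monocarboxylate transporter (1, FDR = 0.455), rose, with array 1 within 0.3 of fructose in both.

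Xenobiotic receptors had rises and no falls, and conjugation enzymes were mixed. Of 18 measured receptors and partners 6 rose and none fell (33.3%, median 0.39), and the median on array 1 was 0.23. Nr1i3, the receptor CAR, was at 10.97, 11.39 and 11.12 with fructose and 11.07, 12.91 and 13.51 with benzoate (1.34, FDR = 0.384; -0.09 on array 1). Ppargc1a, a coactivator of fasting metabolism, rose by 1.08 (FDR = 0.441). Of 38 conjugation enzymes 7 rose and 9 fell. Gstt2, a theta class glutathione transferase, was at 8.68, 10.37 and 10.36 against 11.2, 11.6 and 12.93 (2.11, FDR = 0.204), with all benzoate arrays above fructose. Gstp1 and Gstp2, the pi class transferases that are higher in male mice, lay at 15.51 to 16.02 on array 1 and at 10.67 to 11.08 on arrays 2 and 3, against 14.62 to 16.05 with fructose. They are close relatives, and their signals may not be separate.

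Lipid and sugar genes gave few calls over the 3 arrays, and the fatty acid oxidation list split array 1 from the others. Of 21 genes of de novo lipogenesis 1 rose, Scap, the escort of the sterol-regulated SREBP factors (11.06, 11.97 and 12.19 against 12.74, 12.5 and 12.39, 0.8, FDR = 0.381), and 1 fell, Elovl3. Of 22 genes of fructose, glucose and glycogen metabolism none passed, but the median was 0.43 and the array medians were 0.29, 0.5 and 0.31 with benzoate against -0.26, 0.16 and 0.08 with fructose. Fbp1, fructose bisphosphatase, was at 17.07 ± 0.17 with fructose and 17.53 ± 0.21 with benzoate (SD, n = 3 each, FDR = 0.556), and Slc2a2, the glucose transporter GLUT2, at 16.41 ± 0.21 and 17.05 ± 0.04 (FDR = 0.778). Of 35 genes of fatty acid oxidation 3 rose and 6 fell. In 17 of them arrays 2 and 3 lay above the fructose range and array 1 did not (9.2% of all probe sets). Without array 1, 14 were higher and 3 lower (6.01% and 5.23% of all probe sets), and on array 1 alone none was higher and 8 were lower (3.42%). The largest rises were the thioesterases Acot3 (6.51, 9.3 and 7.23 against 7.9, 13.26 and 14.93, 4.35, FDR = 0.247) and Acot4 (1.92, FDR = 0.293), and the largest falls Cyp4a12a and Cyp4a12b, all with array 1 inside the fructose range or near its edge. In the list of droplet and lipoprotein genes, 4 of 37 rose, with Abcg5 and Abcg8 first, and 1 fell, Fitm1, a protein of lipid droplet formation (7.04, 7.65 and 8.1 against 6.83, 5.47 and 6.22, -1.42, FDR = 0.241).

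Of 27 genes of insulin and growth factor signalling 6 rose and none fell over the 3 arrays. Array medians were 0.23, 0.32 and 0.67 with benzoate against -0.13, 0 and 0.1 with fructose. On array 1, 9 of the 27 lay above the fructose range and 4 below it, while 59.1% of all probe sets had array 1 outside that range. Igfals, the circulating partner of IGF1, rose by 1.12 (FDR = 0.438). Akt2, the insulin-responsive kinase of liver, was at 8.89, 9.31 and 9.35 with fructose and 10.37, 10.1 and 9.89 with benzoate (0.93, FDR = 0.232), and the related Akt1, which was picked after its values had been seen, at 9.85, 9.92 and 9.93 against 10.67, 10.8 and 10.92 (0.89, FDR = 0.219). Both kinases were higher on every benzoate array. Of 21 glucocorticoid and fasting genes 4 rose and none fell over the 3 arrays, led by Mt1 and Dusp1, a stress-induced phosphatase (1.74, FDR = 0.359). On array 1, 13 of the 21 lay above the fructose range and 6 below it. The array medians were 0.46, -0.16 and 0.6 with benzoate against 0.18, -0.23 and 0.04 with fructose, so array 2 lay within the fructose arrays.

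Redox and aldehyde genes gave calls in both directions. In the list of redox genes and NRF2 targets, 3 of 29 rose and 5 fell. Ugdh, which makes UDP-glucuronic acid for glucuronidation, was at 12.39, 12.44 and 12.34 with fructose and 11.56, 11.06 and 10.72 with benzoate (-1.27, FDR = 0.241). Aox1, aldehyde oxidase, was at 13.25, 13.93 and 13.95 against 12.57, 13.13 and 12.21 (-1.07, FDR = 0.384), and Fmo2, a flavin monooxygenase of the female list, rose by 1.13 (FDR = 0.241). In these 3 genes all benzoate arrays lay outside the fructose range. Of 16 aldehyde dehydrogenases 3 rose and 3 fell. Aldh1a1, retinaldehyde dehydrogenase, was at 17.79, 17.73 and 17.56 against 17.11, 16.58 and 16.3 (-1.03, FDR = 0.272), and its relative Aldh1a7 fell by 0.77 (FDR = 0.353). Aldh1b1 (0.75, FDR = 0.527) and Aldh9a1 (0.59, FDR = 0.507), mitochondrial and cytosolic enzymes, rose. Of 19 genes of heme and bilirubin 2 rose, Slco1a4 and Ppox (0.55, FDR = 0.527), and 2 fell, Blvrb, biliverdin reductase B (-0.97, FDR = 0.294), and Slco1a1, a male-biased uptake transporter (-1.54, FDR = 0.375). Of 22 genes of the unfolded protein response none passed (Hspa5 17.62 ± 0.25 against 17.15 ± 0.24, FDR = 0.677; Calr 17.28 ± 0.09 against 17.45 ± 0.11, FDR = 0.899), and of 22 cell cycle genes 1 fell, the mitotic kinase Aurka.

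The lists of basic cell machinery had falls and no rises, and a list of long transcripts bears on RNA quality. Of 69 respiratory chain subunits 19 fell and none rose (median -0.42), with Cox7a2 (13.06, 12.5 and 12.03 against 12, 10.87 and 11.31, -1.14, FDR = 0.241) and Ndufb9 (-1.1, FDR = 0.293) first. The median on array 1 was -0.13, beside 0.18, -0.1 and -0.1 on the fructose arrays. Without array 1, 33 of the 69 were lower (5.23% of all probe sets). Of 43 cytosolic ribosomal proteins 8 fell and none rose (median -0.37), with Rps21 (-0.74, FDR = 0.513) and Rpl5 (-0.73, FDR = 0.396) first, and the list medians of all 3 benzoate arrays (-0.31, -0.47 and -0.28) lay below those of the fructose arrays (0.1, -0.06 and -0.02). Of 22 very long transcripts 2 rose and none fell, 1 had all 3 benzoate arrays above fructose, and the median was -0.08, 0.68 and 0.57 on the benzoate arrays and -0.54, 0.21 and 0.28 on the fructose arrays. Fructose array 1 and benzoate array 1 were thus the lowest of their groups in this list, and its part in the other results was not tested.

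**Figure D5:**
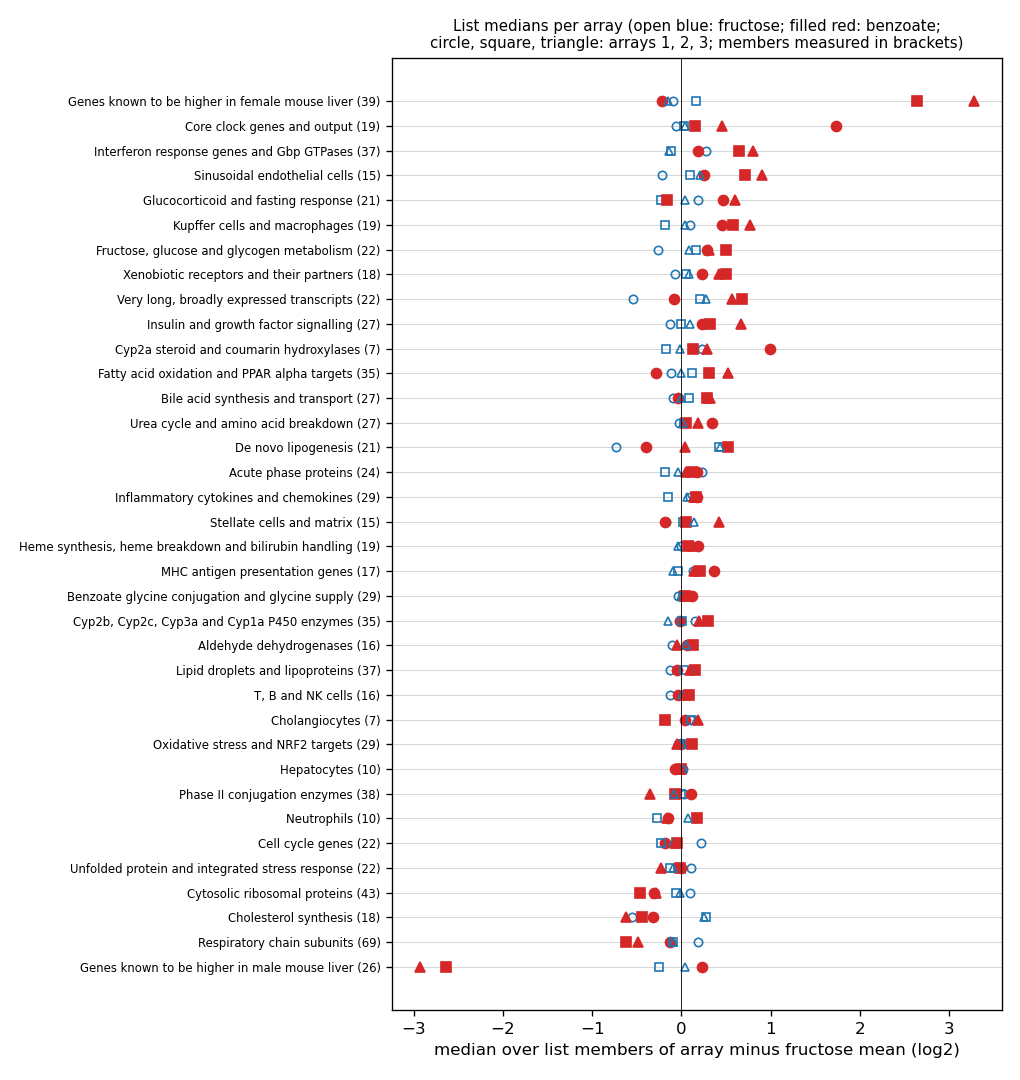
Median over the measured members of each gene list of the log2 difference from the fructose mean, for the 3 fructose arrays (open blue) and the 3 benzoate arrays (filled red), with circle, square and triangle for arrays 1, 2 and 3. The lists of sex-biased genes split array 1 from arrays 2 and 3, and the clock list is highest on array 1 (1.73). Several lists have all 3 benzoate arrays on one side of the fructose arrays. Among them are the lists of macrophages, ribosomal proteins, xenobiotic receptors, insulin signalling, sugar metabolism and sinusoidal endothelium.

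Compared directly with the other preservatives, whose doses differ and whose arrays also entered the estimate of the spread, limma called no probe set at more than 2-fold with an FDR below 0.05. At an unadjusted p under 0.05 and the same fold, 89 probe sets (0.401%) differed between benzoate and sorbate and 207 (0.932%) between benzoate and nitrite. Cyp2a5 differed from sorbate by -0.04 (95% confidence interval -0.53 to 0.45) and from nitrite by 1.42 (0.93 to 1.91, FDR = 0.1). Gbp3 differed from sorbate by -0.13 (-0.68 to 0.41) and from nitrite by 1.43 (0.89 to 1.98, FDR = 0.133). For both genes the interval against nitrite lay above 0 and that against sorbate held 0. These intervals are for single genes and are not adjusted for the number of probe sets. Idi1 differed from sorbate by -1.24 (-1.81 to -0.67, FDR = 1) and Cyp7a1 by -2.89 (-4.48 to -1.29, FDR = 1), while the intervals against nitrite held 0 (Idi1 -0.48 to 0.66, Cyp7a1 -1.03 to 2.16). Csad differed from nitrite by -1.99 (-3.07 to -0.91, FDR = 0.434) and from sorbate by -0.64 (-1.71 to 0.44). All 3 sorbate arrays lacked Y-linked signal and all 3 nitrite arrays had it, so these contrasts differ in that respect as well.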

How the data were processed

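The deposited table holds log2 signals per probe set, which the authors had background-corrected, normalized across arrays and summarised, by SST-RMA according to the methods. Among the tools listed in the submitters' processing notes are RMA and version 1.4 of the Affymetrix Expression Console, and which was used for these values is not settled. No scanner files, scan dates or batches were used here. Groups came from the treatment in the sample labels. The number of arrays, 3 per group, limits the precision, and no read depth exists.

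In R 4.3.3, 6640 of 28846 entries were set aside as controls and 22206 probe sets were tested without further scaling, of which 19572 carry exactly 1 symbol in the platform annotation. All 15 arrays entered a limma 3.58.1 model with a mean for each group, and p-values were adjusted by Benjamini-Hochberg over all probe sets. Signals under the median of 5222 negative control probes of an array were called background. Where several probe sets carry 1 symbol, the brightest stands for the gene. Named genes were those past the FDR, the 10 largest rises and falls past 2-fold and an unadjusted p under 0.05 that all 3 benzoate arrays shared, up to 4 members of each of 38 lists (the 2 largest rises and 2 largest falls that passed, or the 2 brightest where none did), the genes the study names for benzoate and the sex-biased genes. Cry2, Usp2, Per3, Orm2, Cxcl12 and the others said to be so were picked outside this rule, after their values had been seen. The members, lists and alternatives were chosen with earlier results of these data known. Labels do not say whether mice shared litters or cages, so p-values measure the spread between these mice only. On simulated data with 100 genes changed by 1.5 and 100 by 3 (log2) among 22206, 80% and 100% were called at the FDR threshold, beside 5 false calls. The simulated spread came from the fructose, nitrite and sorbate groups, none of which mixes arrays with and without Y-linked signal. The benzoate group does mix them, so these shares do not apply to genes that follow that signal. Promoter sequences are RefSeq's, on GRCm38.p6. The alternatives are those named in the closing section.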

Additional observations from a re-analysis of the deposited data

How the results depend on the processing

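The count at an FDR under 0.05 and a fold change over 2, which was 3, moved to 10 with arrays centred on their median, with low probe sets left out, without the water group and with the Y-linked mean as a covariate, to 9 with only probe sets of 1 symbol, to 7 with trended and robust variances, to 12 with the hybridization controls as a covariate and to 232 with array weights. It ranged from 1 to 171 when single arrays were left out, with 171 without benzoate array 1 and 1 without fructose array 2, fructose array 3, benzoate array 2 or benzoate array 3. Benzoate array 1 alone against fructose, an alternative chosen after seeing the data, gave 9. With only the 6 arrays compared the count was 4, and Mfsd2a (0.00826), Csad (0.0109) and Abcg5 (0.0243), which do not pass in the main fit, passed beside Cyp2a5. Cyp2a5 kept an FDR under 0.05 in all 18 alternatives (highest 0.0156). Cyp2a4 lost it with only the 6 arrays (0.164), on array 1 alone (0.124) and without fructose array 2 or 3 or benzoate array 2 or 3 (0.0579 to 0.0838). Gbp3 lost it with quantile normalization (0.0654), with only the 6 arrays (0.0536), with the replicate block (0.0577) and on array 1 alone (0.41), and its FDR was 0.147 to 0.312 without a fructose array, 0.193 and 0.28 without benzoate array 2 or 3, and 0.255 with the Y-linked covariate.

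The count at an unadjusted p, 326, ranged from 280 to 701 without single arrays (701 without benzoate array 1, 292 of them shared, and 495 without fructose array 2). It was 703 with the Y-linked covariate, 104 of them shared, and 745 on benzoate array 1 alone, 98 of them shared. Of the 326, 62.3% were higher, against 72.3% with centred arrays, 50.9% with the Y-linked covariate and 49.9% on array 1 alone. The difference of the first principal component scores kept its sign (51.3, and 48.8 and 49 under the alternatives). Of 107 genes checked, 7 reversed with the Y-linked covariate, which is estimated mainly from the benzoate arrays since no other group holds arrays with and without Y-linked signal (Cyp7b1 0.69, Cyp2b9 -0.43, Cyp2b13 -0.06, Uty 0.07, Gstp1 0.25, Gstp2 0.04, Alas2 0.14), 56 no longer passed and 44 stayed on their side of the threshold. On array 1 alone 13 reversed (Cyp7b1 0.95, Cyp2b9 -1.02, Cyp2b13 -0.51, Cyp2c40 -0.18, A1bg -0.22, Cyp4a12a 0.05, Cyp4a12b 0.35, Uty 0.32, Eif2s3y 0.27, Nr1i3 -0.09, Gstp1 0.51, Gstp2 0.29, Alas2 0.24), and 51 no longer passed. No gene reversed in the other alternatives. Replicate numbers are shared between groups, but same-numbered arrays deviated together only weakly (r = 0.179, 0.041 and 0.112), and with the replicate block the counts were 3 and 334 and Glyat no longer passed at an unadjusted p under 0.05. The causes of these differences were not tested.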

Other observations

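Rnf152, Tsc1 and Flcn were higher on all 3 benzoate arrays than on the fructose arrays. They were chosen after their values had been seen, none passed the FDR, and no list of related genes was counted. Rnf152, a lysosomal ubiquitin ligase, was at 7.86, 8.46 and 7.61 with fructose and 9.86, 10.11 and 10.58 with benzoate (2.21 ± 0.42, FDR = 0.0958). Tsc1, a subunit of the complex that inhibits mTORC1, was at 8.36, 8.72 and 8.78 against 9.68, 9.78 and 10.14 (1.25 ± 0.24, FDR = 0.102). Flcn, folliculin, was at 7.72, 7.79 and 8.27 against 9.71, 9.04 and 9.78 (1.59 ± 0.35, FDR = 0.193). Array 1 alone was higher in each (1.88, 1.06 and 1.79). The sorbate arrays lay at 9.2 to 9.68 for Rnf152, 9.81 to 9.89 for Tsc1 and 8.84 to 9.44 for Flcn, and the nitrite arrays at 8.88 to 9.87, 9.26 to 10.02 and 8.5 to 10.01, so that all 9 preservative arrays exceeded the 3 fructose arrays in these genes.

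In several of the genes with the smallest p-values the fructose arrays, and not the benzoate arrays, were those that stood apart from the water arrays. Irf7 was at 8.67 to 9.26 with water and 9.06 to 9.42 with benzoate, Ly6e at 14.74 to 15.34 and 14.5 to 15.06, and Cd5l at 10.5 to 11.04 and 10.97 to 11.76. The water arrays differ from the others in their controls, with negative control medians of 5.58 to 5.63 against 6.03 to 6.53 on the 6 arrays compared, and the part of this in the levels was not tested.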
